A study of Mus musculus with 2 samples.

Results

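The genes that write, copy and remove DNA methylation, and the core of Polycomb repressive complex 2 (PRC2), were followed at gene and transcript level in an induced mouse erythroid line. The 10 members were Dnmt1, Uhrf1, Dnmt3a, Dnmt3b, Tet1, Tet2, Tet3, Ezh1, Ezh2 and Suz12. They were given as a list of symbols, matched to GENCODE names through their Ensembl identifiers, and all 10 were found among 69691 listed entries, of which 21461 are nuclear protein-coding genes. Their 78 listed transcripts were taken with them. Of the 10 genes, 8 were transcribed and 2, Dnmt3a and Tet1, had no count in either library, as had 47.0% of nuclear protein-coding genes.

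The material was total RNA from G1E-ER4, an immortalized erythroid line that the labels give as male and of strain C57BL/6J, in which GATA1, the master regulator of erythroid genes, has been restored. Cells of this single group received 10 nM 17beta-estradiol for 24 h, which induces their differentiation. The group has 2 libraries, labelled as biological replicates 1 and 2, and untreated cells were not analysed here. The line is a single line, so the spread given below is the spread between these 2 samples and no test between conditions was possible.

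DNA methylation in mammals sits on the cytosine of CpG pairs, where de novo methyltransferases (DNMT3A, DNMT3B) set it, DNMT1 copies it to the new strand after replication with the help of UHRF1, and TET enzymes oxidise it as a step to its removal. PRC2 methylates lysine 27 of histone H3 and keeps developmental genes silent. Its catalytic subunit is EZH1 or EZH2, and SUZ12 and EED hold the complex together. Maturing mouse erythroblasts are known to lose DNA methylation genome-wide, and in human erythroid precursors EZH1 is known to take over part of the role of EZH2.

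Replicate 1 held 50277914 expected counts, 14373925 of them from nuclear protein-coding genes, and replicate 2 held 47478888 and 13901316. Those genes took 22.7% and 22.9% of all TPM (a transcript level corrected for length and scaled to a fixed total in each library), so a TPM here is low against one from a library of messenger RNA alone. All 8 erythroid markers examined were detected, among them Klf1, an activator of globin genes, at 24.75 and 28.96 TPM. Gata1 had 57.58 and 65.70 TPM, but since GATA1 has been restored in this line, its detection does not speak for cell identity. Of 16 markers of myeloid, lymphoid, stromal, endothelial and pluripotent cells none was detected and 9 had no count. Over all nuclear protein-coding genes 40.2% were detected and 47.0% had no count. The summed level of the 16 was 0.56 TPM in replicate 1 and 2.41 TPM in replicate 2, where the myeloid gene Mpo had 70 counts against 1 in replicate 1. Its part in the results below was not tested. In such bulk RNA, fewer cells of a type and less RNA per cell cannot be told apart. The labels give a starting quantity of 1 ng.

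Several members are listed with alternative coding exons, and the share of each form is part of the results below. The segments are shown first, read from GENCODE M21 transcripts on GRCm38 (mm10) in the sense of the gene. Capitals mark the alternative segment and lower case the 9 bases of neighbouring exon on each side.
Suz12, chr11:79999057-79999125, plus strand: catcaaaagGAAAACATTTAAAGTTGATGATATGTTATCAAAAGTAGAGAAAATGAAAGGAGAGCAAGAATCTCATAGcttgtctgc
Ezh2, chr6:47541845-47541970, minus strand: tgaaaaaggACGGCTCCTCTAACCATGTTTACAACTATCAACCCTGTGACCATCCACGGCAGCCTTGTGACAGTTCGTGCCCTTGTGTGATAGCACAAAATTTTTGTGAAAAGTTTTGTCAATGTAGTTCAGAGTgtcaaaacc
Uhrf1, chr17:56313041-56313064, plus strand: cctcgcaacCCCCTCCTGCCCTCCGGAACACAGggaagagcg
Dnmt3b exon A, chr2:153670849-153670908, plus strand: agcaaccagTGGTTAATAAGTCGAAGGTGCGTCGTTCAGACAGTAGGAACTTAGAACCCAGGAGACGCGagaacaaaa
Dnmt3b exon B, chr2:153683608-153683677, plus strand: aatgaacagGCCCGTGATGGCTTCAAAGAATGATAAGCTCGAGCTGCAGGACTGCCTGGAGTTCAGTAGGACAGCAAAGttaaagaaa
Dnmt3b exon C, chr2:153684359-153684477, plus strand: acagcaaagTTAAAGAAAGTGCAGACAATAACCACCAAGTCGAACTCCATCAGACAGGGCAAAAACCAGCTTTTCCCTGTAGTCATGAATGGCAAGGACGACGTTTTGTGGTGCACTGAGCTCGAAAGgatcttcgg
The Suz12 exon has 69 nt, the Ezh2 exon 126 nt, the Uhrf1 segment 24 nt and Dnmt3b exon A 60 nt, each a whole number of codons (23, 42, 8 and 20). Exons B and C of Dnmt3b have 70 and 119 nt, and only their sum of 189 nt is a whole number of codons (63). Both are absent from the same Dnmt3b transcripts, and such forms are known to lack part of the catalytic domain. The Dnmt3b form without exon A only is the well-known Dnmt3b2.

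The highest of the 10 genes on TPM was Suz12, the PRC2 scaffold, at 88.13 TPM in replicate 1 and 75.17 TPM in replicate 2. It was followed by Ezh2 (62.2 ± 4.42 TPM), Uhrf1 (50.2 ± 3.79), Dnmt1 (44.05 ± 1.30), Tet3 (19.1 ± 2.57), Tet2 (13.0 ± 1.43), Ezh1 (6.94 ± 1.19) and Dnmt3b (5.35 ± 0.057; SD, n = 2 throughout). Dnmt3a and Tet1 stood at 0 in both. Every difference between neighbours in this order exceeded the sum of their SDs, except that of the last pair, which is tied. At a threshold of 1 TPM in both libraries 8 of the 10 were detected, against 40.2% of nuclear protein-coding genes, and the median of the 10 means, zeros included, was 16.04 TPM, against 9.76 TPM over the detected protein-coding genes.

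The order depends on which transcripts are added up. On protein-coding transcripts alone Suz12 had 49.38 and 50.13 TPM, Uhrf1 46.09 and 43.41 TPM, Dnmt1 43.13 and 44.97 TPM, and Ezh2 43.54 and 41.53 TPM. On that scale Ezh2 moved from behind Suz12 to behind Dnmt1, and neither Uhrf1 and Dnmt1 nor Dnmt1 and Ezh2 differed by more than their spread. Tet3 at 13.0 ± 1.29 TPM and Tet2 at 13.0 ± 1.43 TPM did not differ by more than their spread either. Suz12 stayed above Uhrf1, Ezh1 (5.16 ± 0.83 TPM) above Dnmt3b (4.015 ± 0.064 TPM), and the zeros stayed at 0.

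**Figure D1:**
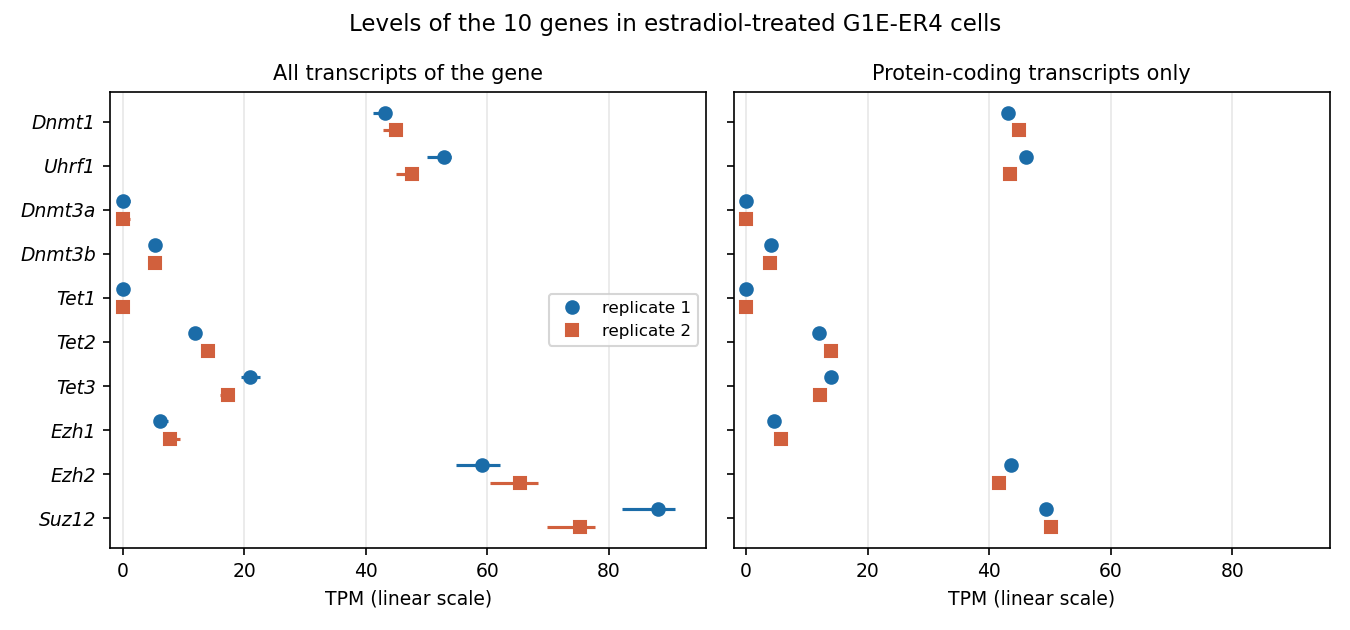
Level of each gene in TPM on a linear axis in replicate 1 (circles) and replicate 2 (squares), summed over all its transcripts (left, lines are the deposited credibility intervals, whose level is not stated) and over protein-coding transcripts only (right, no interval). Suz12 lies at 88.13 and 75.17 TPM on the left and at 49.38 and 50.13 TPM on the right, where Suz12, Uhrf1, Dnmt1 and Ezh2 gather between 41.53 and 50.13 TPM.

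Between the libraries no member differed 2-fold or more, against 1.95% of 8808 protein-coding genes with a mean of 1 TPM or more. The log2 ratio of replicate 2 over replicate 1, with 0.1 TPM added, ran over the 8 transcribed members from -0.27 for Tet3 to 0.35 for Ezh1, with 4 higher in each library. Its median size was 0.19, against 0.16 over the 8808 genes. On protein-coding transcripts alone the median size over the members was 0.08, against 0.16 over the same genes, and 4.35% of those genes were then 2-fold apart. Suz12 changed from -0.23 over all transcripts to 0.02 over coding transcripts, and Ezh2 from 0.14 to -0.07, so the replicate in which Ezh2 was higher depended on the transcripts counted.

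Copying of methylation was represented by a pair of genes at similar level. Dnmt1, the maintenance methyltransferase (chr9:20907209-20959888, minus strand), had 43.13 and 44.97 TPM from 7452 and 7370 expected counts, above 95.6% and 95.8% of protein-coding genes. Uhrf1, which reads hemimethylated CpG pairs behind the replication fork and recruits DNMT1 (chr17:56303321-56323486, plus strand), had 52.91 and 47.55 TPM from 5146.52 and 4566.71 expected counts. Its counts are not whole, unlike those of the other members, so part of its reads was shared with another entry of the table. The ratio of Uhrf1 to Dnmt1 was 1.23 and 1.06 on TPM (1.14 ± 0.120), and 1.07 and 0.965 over coding transcripts (1.02 ± 0.0731).

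Dnmt1 was divided over 3 listed transcripts that share 5092 nt and differ in their first exon. Dnmt1-201, with 1620 codons, had 22.81 and 23.67 TPM, or 52.8 ± 0.18% of the gene. Dnmt1-202 begins at an upstream first exon of 156 nt (chr9:20959733-20959888) and had 17.26 and 18.59 TPM, or 40.7 ± 0.93%. Dnmt1-203 begins with 778 nt at chr9:20951846-20952623 and had 3.06 and 2.71 TPM, or 6.56 ± 0.756%. Dnmt1-202 and Dnmt1-203 are listed with 1501 codons, and the order of the 3 was the same in both libraries on TPM and on counts. Mouse Dnmt1 is known to have an oocyte and a spermatocyte first exon beside the somatic exon, but the tables do not say which model stands for which, and they hold no count per exon, so the signal on each first exon was not tested.

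The promoter windows of the leading pair of Dnmt1 starts differ in CpG content, and both are shown here from RefSeq on GRCm38.p6, 250 bases before to 50 after the start, with each CpG in capitals.
Dnmt1-201 start, chr9:20952930-20953229, minus strand: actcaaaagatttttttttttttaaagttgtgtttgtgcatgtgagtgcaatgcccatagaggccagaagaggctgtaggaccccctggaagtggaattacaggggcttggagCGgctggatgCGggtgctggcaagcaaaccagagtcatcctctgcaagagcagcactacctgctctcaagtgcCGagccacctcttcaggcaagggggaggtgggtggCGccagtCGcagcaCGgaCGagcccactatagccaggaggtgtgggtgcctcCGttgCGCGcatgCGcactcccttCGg
Dnmt1-202 start, chr9:20959839-20960138, minus strand: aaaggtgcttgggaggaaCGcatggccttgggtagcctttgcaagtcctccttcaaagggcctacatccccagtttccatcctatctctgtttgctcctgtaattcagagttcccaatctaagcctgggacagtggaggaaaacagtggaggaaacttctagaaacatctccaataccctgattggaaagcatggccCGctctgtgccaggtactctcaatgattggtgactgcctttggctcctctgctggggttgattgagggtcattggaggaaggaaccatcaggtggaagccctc
The window at the Dnmt1-201 start holds 12 CpG and the window at the Dnmt1-202 start 2, while the window at the low Dnmt1-203 start holds 33. Over all 32851 mouse windows of this length the median was 7. The Dnmt1-203 window (chr9:20952574-20952873) overlaps the first exon of Dnmt1-201 (chr9:20952708-20952979). Its CpG pairs thus lie also just behind the Dnmt1-201 start, and these counts do not rank the starts by CpG.

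Uhrf1 was carried by Uhrf1-204, with 32.07 and 30.58 TPM, or 60.6% and 64.3% of the gene. Of the smaller models, Uhrf1-203 had 8.60 and 4.78 TPM, Uhrf1-201 5.42 and 4.67 TPM, and Uhrf1-202 0 and 3.38 TPM. Although these single models shifted between libraries, coding transcripts without the 24-nt segment printed above summed to 8.60 and 8.16 TPM, or 18.7% and 18.8% of coding TPM with a resolved segment. The models that begin at the upstream start (201 and 203) summed to 14.02 and 9.45 TPM, and those at the downstream start (202 and 204) to 32.07 and 33.96 TPM.

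Of the de novo enzymes only Dnmt3b had counts. Dnmt3b (chr2:153649450-153687730, plus strand) had 5.39 and 5.31 TPM from 568 and 510 expected counts, above 72.1% and 71.7% of protein-coding genes. Dnmt3a (chr12:3806007-3914443, plus strand), the other de novo enzyme, had 0 counts in both libraries over all 18 of its listed transcripts, the longest of 9685 nt. Against a floor of 3 counts per library for Dnmt3a, at the effective length listed for it, Dnmt3b stood at least 131-fold higher in replicate 1 and at least 122-fold higher in replicate 2 on TPM. On the deposited posterior means the ratio averaged 6.84, and the deposited interval of Dnmt3a runs to 1.24 and 1.30 TPM, far above that floor of 0.0413 and 0.0435 TPM, so the bound holds for the counts and not for the deposited intervals. Such floors and the intervals on counts cover counting error only, since no molecular identifiers are recorded.

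A count of 0 was common, and its meaning has a measured limit. In both libraries 47.0% of nuclear protein-coding genes had no count, as had 34.4% of the 494 with a listed transcript of 9000 nt or more. Of 10988 protein-coding genes at 0 in replicate 1, 71 (0.646%) had more than 10 counts in replicate 2, up to 114 counts, and of 10349 at 0 in replicate 2, 46 (0.444%) had more than 10 in replicate 1, up to 87.9. Dnmt3a and Tet1 were at 0 in each of the libraries. Their deposited posterior mean levels were 0.77 and 0.82 TPM for Dnmt3a and 0.18 and 0.19 TPM for Tet1, although the posterior mean counts were 0 as well.

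The 568 and 510 counts of Dnmt3b were spread over many of its 12 listed transcripts, and its leading model was not the same in the 2 libraries. Dnmt3b-205, which lacks exons A, B and C, took 45.4% of the gene's TPM in replicate 1 and 15.3% in replicate 2. Dnmt3b-201, which has all of them, took 22.2% and 16.0%. Dnmt3b-206 and Dnmt3b-209 were at 0 in replicate 1 and took 16.2% and 16.4% in replicate 2, and a pair of short retained-intron models exchanged places, Dnmt3b-211 with 21.1% and 4.51% and Dnmt3b-212 with 3.70% and 20.9%. Summed by exon, forms without exon A made up 70.4% and 64.0% of coding TPM (67.2 ± 4.57%), and forms without the pair B and C 60.3% and 42.1% (51.2 ± 12.9%).

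Among the oxidases of methylcytosine, Tet3 and Tet2 were transcribed and Tet1 had no count. Tet3 (chr6:83362373-83459084, minus strand) had 20.90 and 17.26 TPM from 4847 and 4106 expected counts. Tet2, often mutated in human myeloid disease (chr3:133463679-133545139, minus strand), had 11.99 and 14.01 TPM from 3582 and 3976 expected counts, all on its single listed transcript of 9179 nt. Tet1 (chr10:62804570-62908996, minus strand), the enzyme known from embryonic stem cells and germ cells, had 0 counts over its 6 listed transcripts, the longest of 14369 nt.

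Against a floor of 3 counts per library for Tet1, Tet2 stood at least 693-fold and 769-fold higher and Tet3 at least 1208-fold and 947-fold higher on TPM in replicates 1 and 2. On the deposited posterior means these ratios averaged 68.5 for Tet2 and 103 for Tet3, and the deposited interval of Tet1 runs to 0.362 and 0.385 TPM, against a floor of 0.0173 and 0.0182 TPM. The ratio of Tet2 to Tet3 was 0.574 and 0.812 on TPM (0.693 ± 0.168). Over coding transcripts it was 0.861 and 1.16 (1.01 ± 0.210), so Tet3 was the higher gene on coding transcripts in replicate 1 and Tet2 in replicate 2. The difference between the scales came with Tet3-201, a processed transcript of 2523 nt with no coding region, which had 6.97 and 5.16 TPM. Tet3-202, the longest model at 10904 nt, had 10.41 and 9.71 TPM, and Tet3-203, which is listed with 1803 codons against 1668, had 3.06 and 2.39 TPM.

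Windows of starts of Tet1 and Dnmt3a, the genes at 0, and of the transcribed Tet2 start are shown with each CpG in capitals. All 3 hold many of the pairs on which these enzymes act. The Tet1 window is set at a RefSeq start (chr10:62887324) that matches none of the listed Tet1 transcripts. They are from RefSeq on GRCm38.p6.
Dnmt3a start, chr12:3806910-3807209, plus strand: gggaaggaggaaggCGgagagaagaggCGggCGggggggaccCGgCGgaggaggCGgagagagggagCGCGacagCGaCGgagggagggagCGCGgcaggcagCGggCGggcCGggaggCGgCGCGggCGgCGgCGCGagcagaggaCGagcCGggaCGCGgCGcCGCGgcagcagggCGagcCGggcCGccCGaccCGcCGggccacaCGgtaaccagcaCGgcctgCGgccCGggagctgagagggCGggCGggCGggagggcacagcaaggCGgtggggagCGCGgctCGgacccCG
Tet1 start, chr10:62887275-62887574, minus strand: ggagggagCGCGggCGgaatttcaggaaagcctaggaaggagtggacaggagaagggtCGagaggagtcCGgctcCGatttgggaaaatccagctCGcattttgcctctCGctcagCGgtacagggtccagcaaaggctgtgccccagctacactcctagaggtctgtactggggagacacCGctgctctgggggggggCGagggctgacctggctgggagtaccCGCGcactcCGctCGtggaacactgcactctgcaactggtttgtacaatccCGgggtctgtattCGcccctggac
Tet2 start, chr3:133544341-133544640, minus strand: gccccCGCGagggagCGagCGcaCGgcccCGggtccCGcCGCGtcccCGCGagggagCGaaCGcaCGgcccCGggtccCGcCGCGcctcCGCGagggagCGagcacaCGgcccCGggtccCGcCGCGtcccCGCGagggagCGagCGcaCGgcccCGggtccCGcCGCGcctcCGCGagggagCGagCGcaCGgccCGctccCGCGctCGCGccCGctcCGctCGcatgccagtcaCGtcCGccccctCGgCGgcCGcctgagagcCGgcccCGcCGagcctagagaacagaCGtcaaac
The Dnmt3a window holds 47 CpG, the Tet1 window 17 and the Tet2 window 57, against the median of 7 over all windows. Of the 15 windows listed for the 10 genes, 14 lay above that median, and only the Dnmt1-202 window lay below it. The 15 are not independent: Dnmt1, Dnmt3a and Uhrf1 have more than 1 window each. The Dnmt3a windows chr12:3806730-3807029 and chr12:3806910-3807209 overlap. The windows of the genes at 0 and of the transcribed genes overlapped in CpG count, from 17 to 47 and from 2 to 57. The Tet1 window, which gives the 17, and the Dnmt3a window chr12:3806730-3807029 match no listed transcript. Methylation itself was not measured.

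PRC2 was represented by high Suz12 and Ezh2 and low Ezh1. Ezh2 (chr6:47530139-47595341, minus strand) had 59.09 and 65.34 TPM from 3402 and 3272 expected counts, and Ezh1 (chr11:101191115-101226463, minus strand) had 6.10 and 7.78 TPM from 609 and 727. The ratio of Ezh2 to Ezh1 was 9.69 and 8.40 on TPM (9.04 ± 0.911) and 9.53 and 7.22 over coding transcripts (8.37 ± 1.63). Ezh1 was the member that differed most between the libraries, by a log2 ratio of 0.35 with a counting error of 0.08, and it remained higher in replicate 2 on counts scaled to library totals (0.34).

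Suz12 (chr11:79993106-80034123, plus strand) had 7519 and 7036 expected counts, which scaled to library totals differed by a log2 ratio of -0.01 only. The ratio of Suz12 to Ezh2 was 1.49 and 1.15 over all transcripts (1.32 ± 0.241) and 1.13 and 1.21 over coding transcripts (1.17 ± 0.0516). Eed, the H3K27-methyl reader of the complex and a required core subunit, had 14.38 and 13.35 TPM. Its ratio to Suz12 was 0.163 and 0.178 on TPM (0.170 ± 0.0102), and 0.171 and 0.173 over coding transcripts.

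The coding forms of Suz12 kept their order, but the gap between them was wider in replicate 2, while their sum differed by less than 1 TPM. Suz12-201, with the 69-nt exon, had 26.71 and 36.09 TPM, and Suz12-206, without it, 22.67 and 14.04 TPM, and the deposited intervals of each did not overlap between the libraries. The sum of both was 49.38 and 50.13 TPM. Forms without the exon thus made up 45.9% and 28.0% of coding TPM (37.0 ± 12.7%). The retained-intron models Suz12-205 (611 nt) and Suz12-203 (651 nt, of which 439 nt run on into the intron after the 69-nt exon) had 27.49 and 16.44 TPM and 11.25 and 7.56 TPM, and summed to 38.74 and 24.00 TPM from only 643 and 377 expected counts. The gene-level difference of Suz12 between the libraries thus lay in these short models and not in the coding sum.

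Ezh2 had several coding models of similar level. Ezh2-201 had 17.04 and 15.35 TPM, and Ezh2-202, without the 126-nt exon, 14.66 and 18.14 TPM. Forms without that exon made up 39.4% and 49.7% of the coding TPM in which the exon is resolved (44.6 ± 7.28%). The short coding model Ezh2-205 (866 nt) had 6.36 and 5.05 TPM. Ezh2-209, a model of 666 nt annotated to nonsense-mediated decay, had 8.80 and 15.67 TPM with deposited intervals that did not overlap between the libraries, and the higher gene-level Ezh2 of replicate 2 came with it.

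Ezh1 shows the limit of single models. Ezh1-202 had 400.94 and 0.95 expected counts and Ezh1-203 0.83 and 416.84, so almost every read of the pair was placed on a different model in each library. These models share 4193 nt and differ by 14 nt, and their deposited intervals are wide and overlap between the libraries, although all 4 point values lie outside their own intervals. Their sum was 2.98 and 3.28 TPM. Ezh1-201, a shorter coding model of 579 codons against 747, had 1.59 and 2.47 TPM, with intervals that did not overlap between the libraries. Ezh1-205, a short processed transcript, had 0.35 and 1.27 TPM.

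**Figure D2:**
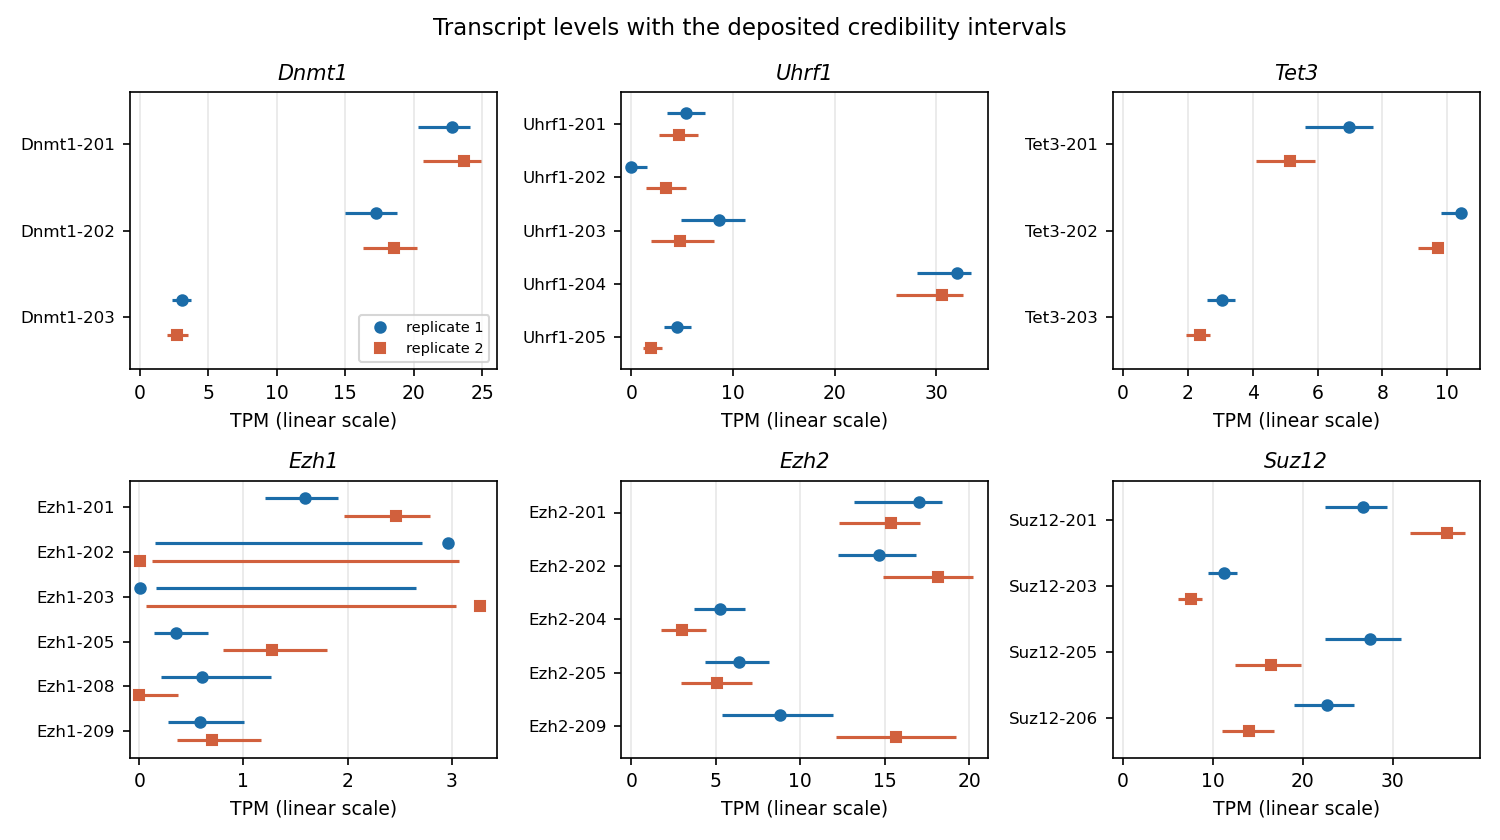
Level in TPM (linear axes) of the transcripts that hold 5% or more of their gene in either library, for Dnmt1, Uhrf1, Tet3, Ezh1, Ezh2 and Suz12. Circles are replicate 1, squares replicate 2 and lines the deposited credibility intervals. The 3 Dnmt1 models keep their order, the points of Ezh1-202 and Ezh1-203 change places and lie outside their own wide intervals, and the intervals of all 4 Suz12 models are apart between the libraries.

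Over all 78 transcripts of the members, 45 had a count in either library and 34 in both, and for 13 of the 45 (28.9%) the deposited intervals of the libraries did not overlap, against 19.6% of 38321 such transcripts of nuclear protein-coding genes. The leading transcript by TPM differed between libraries in 4 of the 7 transcribed members with more than 1 transcript (Dnmt3b, Ezh1, Ezh2 and Suz12), against 23.0% of 6616 protein-coding genes of that kind. By expected counts it differed in 2 (Dnmt3b and Ezh1), against 16.4%. The genes and transcripts set beside the members were not matched to them in number of listed models or in depth. Transcripts not annotated as protein-coding (retained introns, processed transcripts and models annotated to nonsense-mediated decay) took 25.1% and 26.2% of a member's TPM at the median of those 7, against 18.2% and 19.7% over the protein-coding genes. The share was 44.0% and 33.3% in Suz12, 26.3% and 36.4% in Ezh2, 33.3% and 29.9% in Tet3 and 0% in Dnmt1. On expected counts these models held 8.56% and 5.52% of Suz12, 11.8% and 17.4% of Ezh2 and 11.4% and 9.45% of Tet3, since a short model turns few reads into many TPM.

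**Figure D3:**
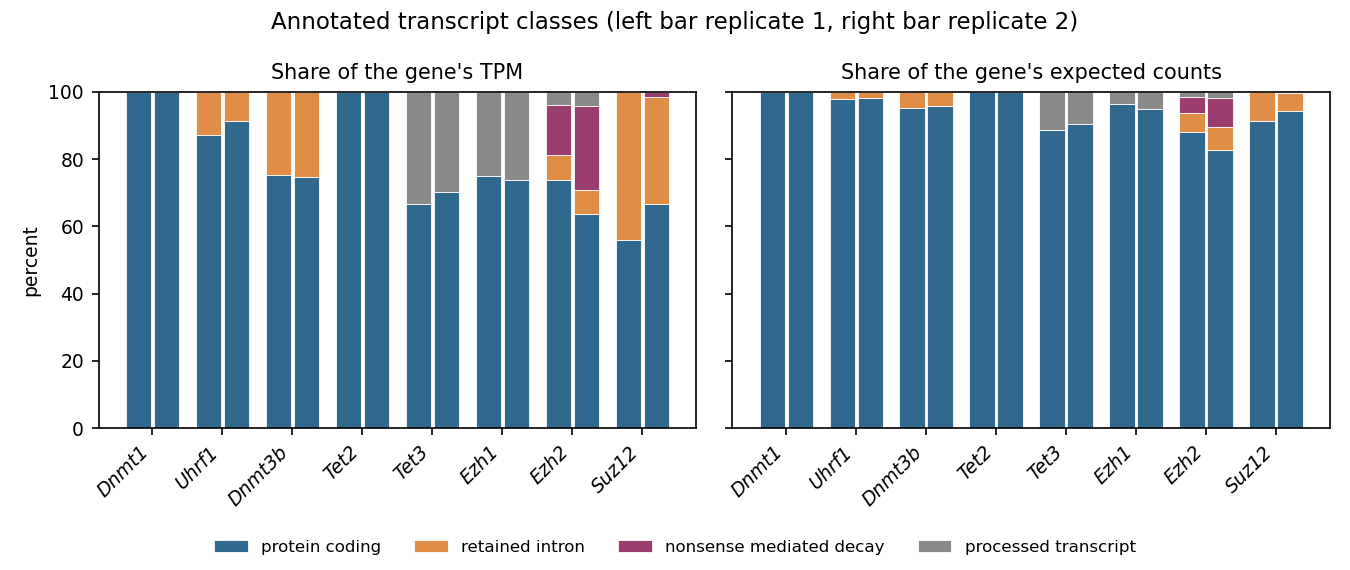
Share of each transcribed gene by annotated transcript class, in percent of its TPM (left) and of its expected counts (right), with replicate 1 as the left bar and replicate 2 as the right bar of each pair. Retained-intron models fill 44.0% of Suz12 on TPM in replicate 1, and the models not annotated as protein-coding together hold 8.56% of its counts there.

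In the promoter windows of the members no GATA letters were found (AGATAA or TGATAA, both strands, 0 of 15), against 18.6% of all windows. E2F letters (TTTCGCGC or TTTGGCGC, both strands) were in 3 of the 15, those of Dnmt1-203, Ezh2 and Uhrf1, against 0.813% of all windows. Those 3 windows hold 33, 31 and 33 CpG, against a median of 7 over all windows, and the E2F letters themselves contain CpG. The windows compared were not matched for CpG or GC content. Whether the GATA and E2F shares set the members apart from windows of like composition was thus not tested. E2F factors are known to drive genes of the S phase, and the matches are printed in capitals because so few windows hold these letters. All are from RefSeq on GRCm38.p6 in the sense of the gene, and GCGCGAAA is the first motif on the other strand.
Dnmt1, chr9:20952824-20952853, minus strand: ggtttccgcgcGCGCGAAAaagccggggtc
Dnmt1, chr9:20952574-20952601, minus strand: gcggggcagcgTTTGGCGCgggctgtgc
Ezh2, chr6:47595009-47595038, minus strand: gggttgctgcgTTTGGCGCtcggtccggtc
Uhrf1, chr17:56304117-56304146, plus strand: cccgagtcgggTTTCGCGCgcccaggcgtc
CCAAT letters (both strands) were in 7 of the 15 windows, against 37.4% of all. The E2F and CCAAT letters do not contain each other. The first Dnmt1 match printed lies also in the first exon of Dnmt1-201 (chr9:20952708-20952979). A match describes these letters only, and binding was not measured.

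Of the other PRC2 genes, 9 of the 10 chosen were listed and 6 were detected, with a median of 13.9 TPM. The share to set beside the detected genes of this and each list below is the 40.2% of nuclear protein-coding genes. The histone-binding subunits Rbbp7 (129 ± 0.0778 TPM) and Rbbp4 (56.6 ± 5.59 TPM) were highest, followed by Mtf2, an accessory subunit that brings PRC2 to CpG-rich DNA (26.3 ± 3.18 TPM). On coding transcripts Rbbp7 had 129.49 and 129.38 TPM, Rbbp4 33.35 and 32.36 TPM and Mtf2 16.41 and 19.65 TPM. RBBP7 and RBBP4 also belong to other chromatin complexes. The accessory genes at the low end were Epop (1.24 and 0.96 TPM), Phf1 (0.97 and 1.23 TPM) and, with no count, Phf19. Epop and Phf1 each reached 1 TPM in a single library, and 8 genes of the list were detected at a threshold of 0.5 TPM. Both enzymes that remove the PRC2 mark were detected, Kdm6b at 30.32 and 24.58 TPM and Kdm6a at 20.50 and 20.38 TPM. The ratio of Kdm6a to Kdm6b was 0.676 and 0.829 (0.753 ± 0.108).

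Polycomb repressive complex 1, which reads the PRC2 mark and ubiquitinates histone H2A, was represented by 14 of 19 genes, with a median of 6.92 TPM over the 19. The ligase gene Rnf2 (38.0 ± 0.184 TPM), its partner Bmi1 (36.7 ± 1.27 TPM) and Phc1 (26.7 ± 3.74 TPM) were highest. Among the chromobox genes, whose products bind the mark, Cbx7 had 1.96 and 2.16 TPM, Cbx6 0.09 and 0.07 TPM, and Cbx2 and Cbx8 had no count. The second ligase gene, Ring1, had 2.95 and 1.33 TPM from 125 and 72 expected counts and was more than 2-fold apart between the libraries.

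Over all transcripts, the partners of DNA methylation were among the highest genes listed, with 5 of 6 detected and a median of 46.8 TPM. The remodeller Hells had 107.63 and 105.48 TPM, the replication clamp Pcna 81.91 and 86.93 TPM, and Usp7, a deubiquitinase that binds DNMT1 and UHRF1, 50.36 and 51.21 TPM. Coding transcripts made up 55.75 and 56.09 TPM of Hells, 71.53 and 76.94 TPM of Pcna and 13.63 and 19.12 TPM of Usp7. Pcna, like Rbbp7, has counts that are not whole, so part of its reads was shared with other entries. Uhrf2 had 21.03 and 20.37 TPM, of which 4.87 and 5.87 TPM lay on coding transcripts. Dnmt3l, the cofactor of de novo methylation in germ cells, had no count. All 8 readers of methylated CpG were detected (median 10.0 TPM), with Mbd2 at 89.1 ± 1.07 TPM, Zbtb33 at 15.0 ± 0.778 TPM and Mbd3 at 11.1 ± 1.09 TPM at the top and Zbtb4 at 2.00 and 2.87 TPM at the bottom. On coding transcripts Mbd2 had 39.66 and 40.62 TPM, Zbtb33 15.51 and 14.41 TPM and Mbd3 10.29 and 11.81 TPM.

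Of 11 genes of later demethylation steps and TET control, 6 were detected (median 1.37 TPM). Ogt, a sugar transferase that binds TET proteins, had 89.69 and 96.08 TPM, of which coding transcripts made up 22.42 and 25.46 TPM. Tdg, the glycosylase that removes oxidised methylcytosine, had 13.54 and 11.34 TPM, and Gadd45a 11.26 and 11.55 TPM, while Neil2 (0.12 and 0.26 TPM) and Cxxc4 (0 and 0.02 TPM) were lowest. All 8 genes of methyl-donor and 2-oxoglutarate supply were detected (median 15.1 TPM), led by Mat2a, the S-adenosylmethionine synthetase (57.79 and 59.80 TPM), Ahcy (36.76 and 29.65 TPM) and Idh3a (24.64 and 25.37 TPM). Over these machinery lists 49 of 63 genes were detected, against 40.2% of nuclear protein-coding genes. Of the 52 with a mean of 1 TPM or more, 2 were 2-fold apart, against 1.95% of such genes, and these were Ring1 and Gadd45g (1.91 and 0.71 TPM).

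Genes known elsewhere as targets of these systems were mostly at 0. Of 10 germline genes known to be silenced by promoter methylation, 0 were detected and 9 had no count, the exception being Taf7l with 6 and 0 counts. Of 12 developmental genes known as Polycomb targets, 1 was detected and 9 had no count, among them the cell-cycle inhibitor genes Cdkn2a and Cdkn2b. Across all nuclear protein-coding genes 47.0% had no count, and neither mark was measured, so no link of these zeros to the members was tested. The detected gene was Pax6, an eye and neural regulator, at 16.58 and 17.18 TPM from 1018 and 1151 expected counts, with 7.40 and 10.46 TPM on its coding transcripts.

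**Figure D4:**
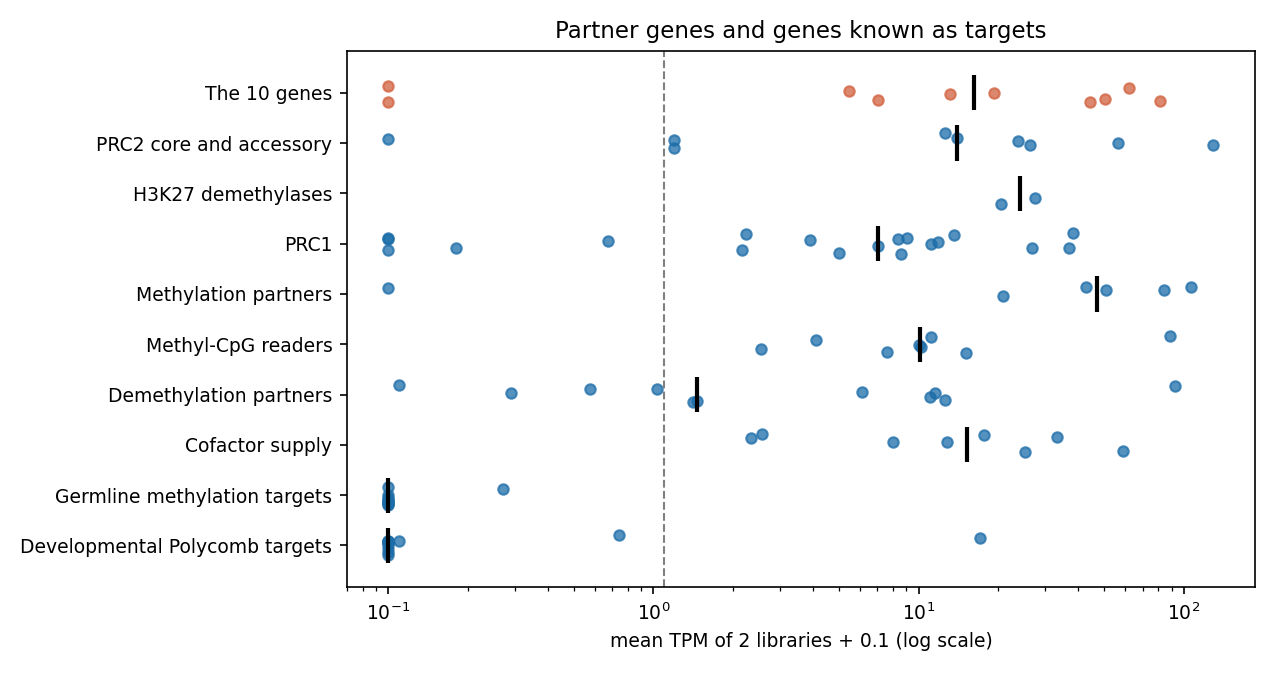
Mean TPM of both libraries, over all transcripts of a gene and with 0.1 added, on a log axis, for the 10 genes (top row) and the genes of each list. Each point is a gene, vertical bars are medians and the dashed line marks 1 TPM. Partners of DNA methylation have a median of 46.8 TPM, germline and developmental target genes lie almost wholly at 0, and Pax6 is the detected gene among them, at a mean of 16.9 TPM.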

How the data were processed

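Total RNA of 2 libraries of a single group was quantified per gene and per transcript. The genome assembly was mm10 per the labels, and GENCODE M4 is the annotation per the file headers. Aligner, quantifier version and trimming: not given in the sources used here. Expected counts, as the authors deposited them, are estimated reads per feature, shared out among overlapping models and not normalized. The deposited TPM values were scaled by the authors per effective length to a fixed total over all features. The FPKM values, also deposited by the authors, and the transcript shares deposited in percent were not used: shares were computed from TPM. The deposited interval bounds are a signal on the TPM scale whose level is not stated, and posterior means served as an alternative.

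Genes were named from GENCODE M21 by identifier without version, which matched 42462 of 43346 Ensembl genes. Names, coding status and exons of transcripts came from M21, so some model lengths differ from M4. Whether counting used strand is not stated. Genes that overlap a member and are listed in the tables had no count. Detected means 1 TPM or more in both libraries. The log2 ratios set replicate 2 over replicate 1 after adding 0.1 TPM to each, and so understate differences between low values. Neighbours in the order of levels were compared with the sum of their SDs. With 1 group there was no test and no p-value. Transcripts with 10% or more of a member and the 3 highest and 2 lowest genes of each list were to be named, ties at 0 in part. Other genes in the text were chosen after their values were seen, as were the alternatives on protein-coding transcripts and on exon shares. The members and lists were chosen with earlier results of these data known. Promoter windows are RefSeq's (GRCm38.p6). Software: matplotlib 3.10.9, scipy 1.17.1, numpy 2.4.6 and pandas 2.3.3 under Python 3.11.15.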

Additional observations from a re-analysis of the deposited data

How the results depend on the processing

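No paired analysis was possible because the series has a single group. The counts of detected members (8) and of members 2-fold apart (0) were the same under every alternative run for them: other TPM thresholds, TPM rescaled over protein-coding genes, posterior means, other pseudocounts, depth-scaled counts and single libraries. On protein-coding transcripts only, chosen after seeing the data, the median member level fell to 13.0 TPM and the ratios became 1.02 for Uhrf1 to Dnmt1, 1.01 for Tet2 to Tet3 and 0.627 for Kdm6a to Kdm6b, and the lower bounds 91.3 for Dnmt3b to Dnmt3a and 664 for Tet3 to Tet1. On expected counts, not divided by length, the ratios became 0.655 for Uhrf1 to Dnmt1, 5.04 for Ezh2 to Ezh1, 2.18 for Suz12 to Ezh2, 0.0812 for Eed to Suz12 and 0.622 for Kdm6a to Kdm6b, and the bounds 170 for Dnmt3b to Dnmt3a, 1194 for Tet2 to Tet1 and 1369 for Tet3 to Tet1. On posterior means, which are above 0 for Dnmt3a and Tet1, these 3 ratios were 6.84, 68.5 and 103. From single libraries the bounds ran from 122 to 131, from 693 to 769 and from 947 to 1208. The median share of the leading transcript was 39.2% on TPM, 52.9% on expected counts and 45.4% to 48.0% from single libraries. Of 69 alternative values of main results 46 kept within the limits set and 23 moved. A value from a single library always lies within the SD around the mean of both libraries. Single libraries therefore could not test the ratios given as means, and all such values counted as kept. The ratio of Uhrf1 to Dnmt1 crossed 1 on expected counts, and that of Tet2 to Tet3 on protein-coding transcripts. The developmental list had 2 detected genes on rescaled TPM. Depth leaves Dnmt3a and Tet1 at 0 counts and Dnmt3b and Ezh1 with 510 to 727 counts.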
